A study of Rattus norvegicus with 4 samples.

Results

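The transcripts described here are those of 5 secreted acute phase proteins (Lbp, Orm1, Cp, A2m and C3) and of 2 signalling genes, the transcription factor Stat3 and the interleukin 1 receptor Il1r1, in rat liver after exposure to a bile duct toxicant. They were taken as every array feature annotated with exactly 1 of these gene symbols. This gave 10 features for 7 genes, of 1936 features and 958 singly named genes on the array. Cp, C3 and Stat3 had 2 features each, which are cited by feature number (57 and 1862 for Cp, 188 and 432 for C3, 723 and 1418 for Stat3), and the other genes had 1.

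Male Sprague-Dawley rats received a single injection into the peritoneum of α-naphthylisothiocyanate (ANIT), which damages bile duct epithelium and causes cholestasis, at 75 mg/kg in olive oil, or of olive oil alone. Livers were taken after 24 h. Liver RNA of the 3 animals of a condition was combined, so each condition is 1 RNA pool, and the ANIT and the olive oil pool were hybridised against each other on 4 spotted cDNA arrays. ANIT RNA carried Cy5 on arrays 1 and 3 and Cy3 on arrays 2 and 4. All ratios below are given as log2 of ANIT over olive oil, with the SD over the 4 hybridisations as error. The log base is not stated, and base 2 is a reading of the values. These arrays are repeats of the same pools, so the SD holds no spread between animals, and no test of the treatment was possible. The direction is likely, not stated: the labels give olive oil as the first and ANIT as the second channel of each array. The files hold ratios without spot intensities, so they give no expression level of a gene, and the liver origin of the RNA could not be checked against levels of hepatocyte markers.

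The acute phase response is the change in plasma protein production that hepatocytes make during inflammation or tissue injury. Interleukin 6, acting through its receptor subunit gp130 and Janus kinases, activates Stat3, and interleukin 1, acting through Il1r1, activates NF-κB. These routes, with C/EBP factors and glucocorticoids, control the genes of secreted proteins such as Lbp, Orm1, A2m and C3. A given gene need not be induced by both routes. In the rat, A2m and Orm1 are among the most inducible of these proteins.

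The deposited ratios depended on the dye. Array medians over all features lay between -0.68 and -0.64 with ANIT in Cy5 and between 0.31 and 0.35 with ANIT in Cy3. The dye contrast of a feature is its mean with ANIT in Cy5 minus its mean with ANIT in Cy3, multiplied by 0.5 and so written as Cy5 over Cy3, and its median over all features was -0.40. A dye contrast cancels in the mean of the 4 arrays only where the dye shifts the orientations by equal and opposite amounts. The array medians were not equal and opposite, so part of a dye shift can remain in a mean. Whether the means of features with a strongly negative dye contrast are free of the dye was not tested. Repeat arrays of the same orientation differed less, with a median SD within an orientation of 0.11 over all features. Centring each array on its median, which sets the typical feature to 0 in each orientation, moved every mean ratio up by 0.17. A feature or gene was called higher or lower in the ANIT pool where its mean was at least 2-fold and the 4 arrays had the same sign.

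By this rule 3 of the 10 features were higher in the ANIT pool, those of Lbp and Orm1 and feature 723 of Stat3, and none was lower. Over the whole array 15 of 1936 features, or 0.775%, were higher and 59, or 3.05%, were lower. Had the deposited values been natural logarithms, the Lbp ratio would be 2.52 on the log2 scale, and feature 1862 of Cp (1.31) and feature 1418 of Stat3 (1.24) would pass as well. With centred arrays 5 of the 10 features were higher, with feature 1862 of Cp and feature 1418 of Stat3 added. The same rule then called 22 features (1.14%) higher and 48 (2.48%) lower over the array. Of the 10 features, 7 were above 0 on all 4 arrays, against 11.9% of all features, and A2m was below 0 on all 4, against 17.6%. The median of the 10 means was 0.69, while that of all features was -0.25. The 1936 features include 485 without a gene symbol, whose nature was not examined. These enter the shares and the median over all features, and the array medians used for centring. Over the means of the 958 singly named genes, 9.08% were above 0 on all 4 arrays and 20.3% below, with a median of -0.24.

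**Figure D1:**
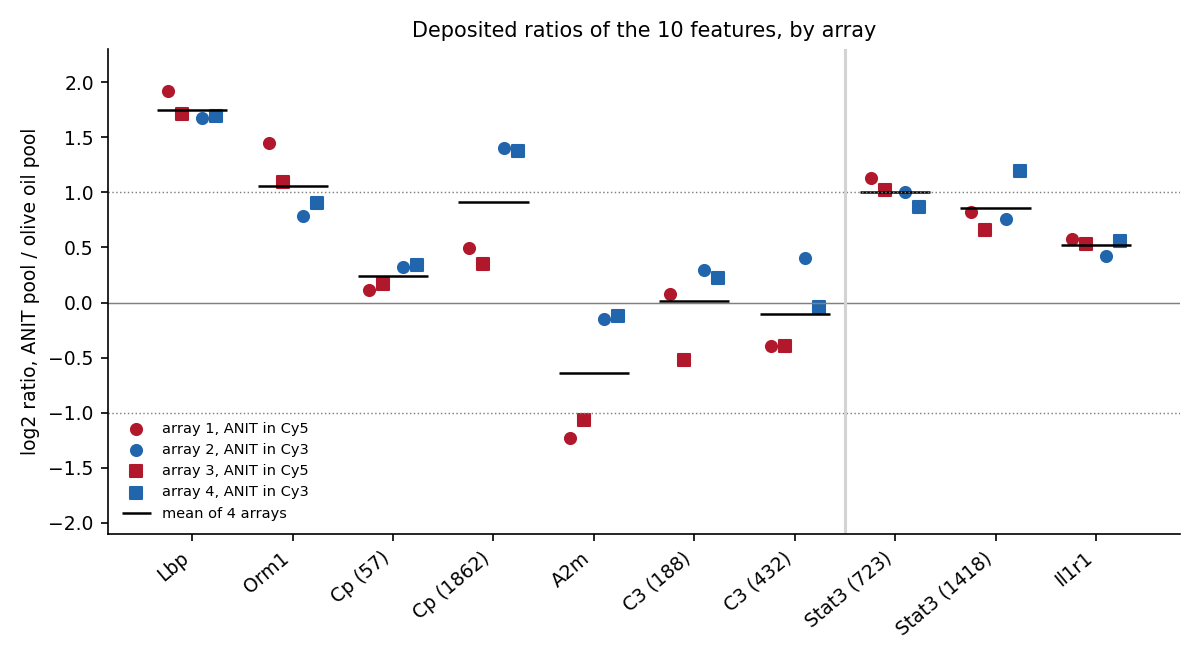
Log2 ratio of the ANIT over the olive oil pool (vertical axis) for the 10 features (horizontal axis, feature numbers in brackets), with 1 point per array, coloured by the dye of the ANIT pool, a bar at the mean of the 4 arrays and dotted lines at 2-fold. Lbp lies between 1.67 and 1.92 on the 4 arrays, while A2m and feature 1862 of Cp split by dye.

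Lbp encodes the plasma protein that binds bacterial lipopolysaccharide and passes it to CD14. Its ratios were 1.92, 1.67, 1.71 and 1.69 on arrays 1 to 4. All lay well above 0 in both dye orientations, with array 1 the highest. The mean was 1.75 ± 0.12 (SD, n = 4), or 3.36-fold. Lbp was second of the 1936 features by its mean and between rank 3 and rank 5 on each array. Its dye contrast was 0.07, and the means of 1.82 with ANIT in Cy5 and 1.68 in the swapped orientation were close.

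Orm1 encodes α1-acid glycoprotein, a plasma carrier of basic drugs and lipids. Its ratios were 1.45, 0.79, 1.10 and 0.91 on arrays 1 to 4. The arrays with ANIT in Cy5 were both higher than those with ANIT in Cy3, and every array was above 0. The mean of 1.06 ± 0.29 (2.09-fold) passed the 2-fold rule by a small margin. Without array 1, and with both orientations weighted equally, it was 0.97 and missed it. The dye contrast of 0.21 was higher than that of 97.5% of all features, and the Orm1 means were 1.27 with ANIT in Cy5 and 0.85 in the swapped orientation. Its rank among all features ran from 10 on array 1 to 105 on array 2.

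Cp encodes ceruloplasmin, the copper-carrying ferroxidase of plasma, and its features gave unlike ratios. Feature 57 had ratios of 0.12, 0.32, 0.17 and 0.34 on arrays 1 to 4, with a mean of 0.24 ± 0.11. Feature 1862 had ratios of 0.50, 1.41, 0.35 and 1.38, with a mean of 0.91 ± 0.56 (1.88-fold). Both features were above 0 on all 4 arrays, and feature 1862 was the higher on each of them, by 0.67 ± 0.46 on average. The gap between them was 0.38 and 0.18 on the arrays with ANIT in Cy5 but 1.08 and 1.03 on those with ANIT in Cy3. The dye contrast was -0.10 for feature 57 and -0.48 for feature 1862. With centred arrays feature 1862 had ratios of 1.18, 1.09, 1.00 and 1.03, a mean of 1.07 ± 0.08, which passed the 2-fold rule. Feature 57 instead became less even, with a centred mean of 0.40 ± 0.46. The mean of both features as deposited was 0.57 ± 0.33.

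A2m encodes α2-macroglobulin, a plasma inhibitor of many proteases. Its ratios were -1.23, -0.15, -1.07 and -0.12 on arrays 1 to 4. Every array was below 0, but the orientations did not overlap, with means of -1.15 with ANIT in Cy5 and -0.13 in the swapped orientation. The mean was -0.64 ± 0.59, or 1.56-fold lower, and did not pass the rule. With centred arrays the ratios were -0.55, -0.46, -0.43 and -0.47, so that the SD of the mean of -0.48 was 0.05. A2m was the only one of the 10 features below the median of all features. By its mean it was at rank 1808 of 1936 from the highest.

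C3 encodes the central component of complement. Feature 188 had ratios of 0.08, 0.29, -0.52 and 0.22, and feature 432 had -0.40, 0.41, -0.39 and -0.04. Neither feature kept the same sign on the 4 arrays. Their means were 0.02 ± 0.37 and -0.11 ± 0.38, and the mean of both was -0.04 ± 0.34. Repeat arrays of the same orientation were themselves apart, by 0.60 between arrays 1 and 3 for feature 188 and by 0.45 between arrays 2 and 4 for feature 432. Their SDs within an orientation were 0.30 and 0.22, against a 95th percentile of 0.27 over all features. A C3 difference was not detectable at this precision.

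The start regions of Orm1 and C3 are shown because these acute phase genes stood apart in the arrays, with Orm1 past 2-fold and C3 near 0, and because both hold matches to the C/EBP motif TTNNGNAA. The sequences are the 250 bases before the annotated start, from RefSeq on build GRCr8, at chr5:81788259-81788508 on the plus strand for Orm1 and chr9:2201340-2201589 on the minus strand for C3. Capitals mark matches on either strand to TTNNGNAA or to CTGGGAA, a core of STAT3-binding acute phase elements.
Orm1: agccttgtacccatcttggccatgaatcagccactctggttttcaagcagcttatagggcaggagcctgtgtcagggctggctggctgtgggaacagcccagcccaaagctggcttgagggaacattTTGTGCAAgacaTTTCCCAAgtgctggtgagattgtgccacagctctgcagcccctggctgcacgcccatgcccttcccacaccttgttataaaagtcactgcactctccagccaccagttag
C3: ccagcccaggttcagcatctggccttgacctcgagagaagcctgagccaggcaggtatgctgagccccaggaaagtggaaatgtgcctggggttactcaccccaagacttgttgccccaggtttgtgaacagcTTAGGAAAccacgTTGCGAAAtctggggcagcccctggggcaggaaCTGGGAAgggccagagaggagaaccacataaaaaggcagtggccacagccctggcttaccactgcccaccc
Orm1 had C/EBP matches at -123 to -116 and -111 to -104, counted back from -1 as the base before the start. C3 had them at -117 to -110 and -104 to -97, and it had a CTGGGAA match at -71 to -65 that overlapped no other match. The windows of Cp, Stat3 and Il1r1 were searched as well. Of the 5 members with a window, 3 held a C/EBP match (Orm1, Cp and C3, of which the Cp window lies inside the annotated span of the gene), 1 held CTGGGAA (C3) and 0 held the palindrome TTCNNNGAA. Over all 33469 windows of the same length 37.2% held TTNNGNAA, 9.56% held CTGGGAA and 7.67% held TTCNNNGAA. A match is a description of the letters and shows no binding.

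Stat3 encodes the transcription factor that carries the interleukin 6 signal to the nucleus and is itself among its own targets. Feature 723 had ratios of 1.13, 1.00, 1.02 and 0.87 on arrays 1 to 4, and feature 1418 had 0.83, 0.75, 0.66 and 1.19. All values were above 0, and the ranges of the features overlapped. The means were 1.00 ± 0.11 (2.01-fold) for feature 723 and 0.86 ± 0.23 (1.81-fold) for feature 1418. Feature 723 passed the rule at its limit, and did not pass without array 1 (0.98) or without array 2 (0.97). Feature 1418 missed it as deposited and passed with centred arrays (1.02). Feature 723 exceeded feature 1418 on 3 of the 4 arrays, by 0.15 ± 0.32 on average, which is within the spread. The gene mean was 0.93 ± 0.09, with 0.91 in one orientation and 0.95 in the other, and a dye contrast of -0.02.

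Il1r1 encodes the receptor that binds interleukin 1 and recruits its signalling adaptor. Its ratios were 0.58, 0.43, 0.53 and 0.56 on arrays 1 to 4, and the orientations overlapped. The mean was 0.52 ± 0.07, or 1.44-fold, the smallest SD of the 10 features, and did not pass the rule. It was at rank 91 of 1936 by its mean. In bulk liver RNA, a different share of a cell type and a different amount of transcript per cell cannot be told apart for any of these genes.

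**Figure D2:**
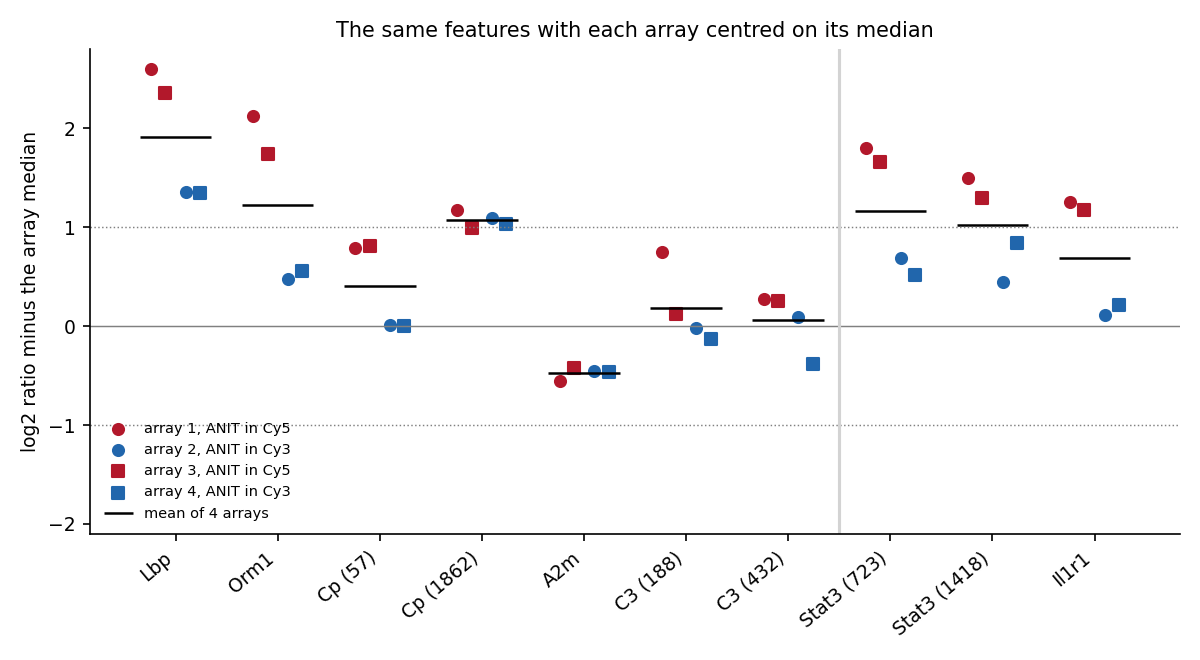
The same 10 features (horizontal axis) with each array centred on the median of all its features (vertical axis, log2 ratio minus the array median), drawn as before with dotted lines at 2-fold. A2m and feature 1862 of Cp now have SDs of 0.05 and 0.08, while Lbp and Orm1 split by dye, with SDs of 0.66 and 0.83.

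Centring thus narrowed some features and widened others. Over all features it lowered the SD in 1137 (58.7%), and among the 10 in 3, feature 1862 of Cp, A2m and feature 432 of C3. For Lbp the centred ratios ran from 1.34 to 2.60 and for feature 723 of Stat3 from 0.52 to 1.81. Lbp and feature 723 of Stat3 lay higher on both arrays with ANIT in Cy5 when centred. Il1r1 ran from 0.11 to 1.26 when centred. The mean ratios of the 10 features kept their order, since centring moves all features alike.

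**Figure D3:**
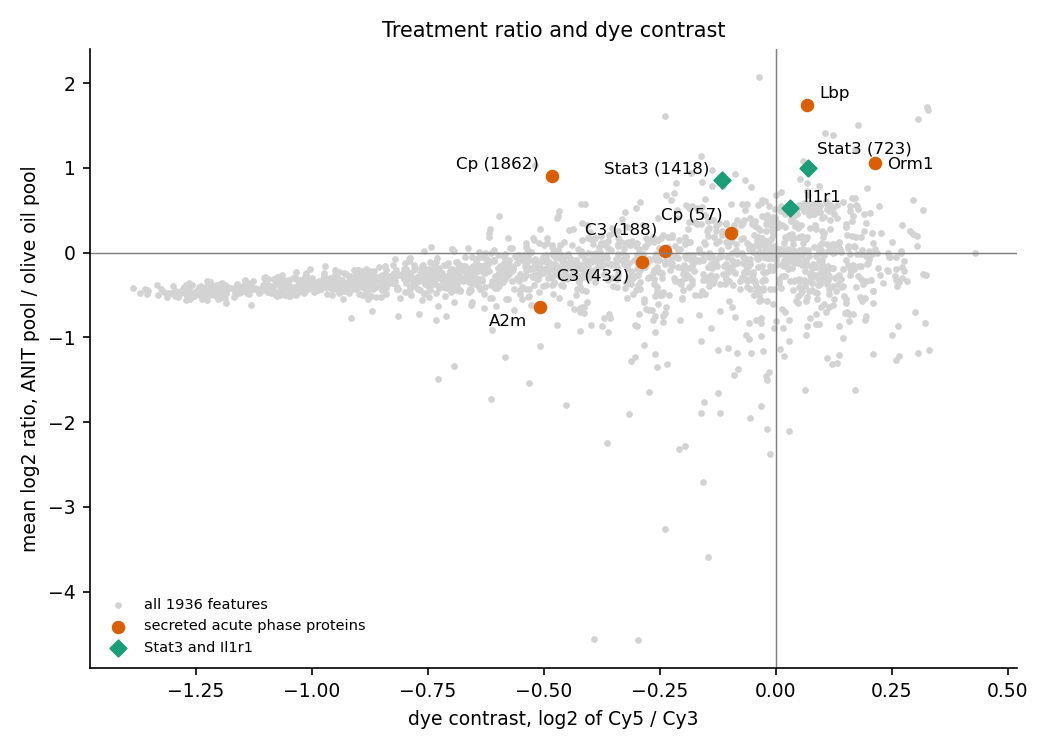
Mean log2 ratio of the ANIT over the olive oil pool (vertical axis) against the dye contrast, log2 of Cy5 over Cy3 (horizontal axis), for all 1936 features in grey, with the secreted proteins as circles and Stat3 and Il1r1 as diamonds. Features with a strongly negative dye contrast lie in a narrow band, and the members lie between -0.51 and 0.21 on the dye axis.

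The members were also placed among the features whose dye contrast lay within 0.1 of their own, a description added after the data were seen. Lbp was the highest of 414 such features. Feature 1862 of Cp was second of 242, where the median was -0.17. Orm1 was at rank 5 of 161, feature 723 of Stat3 at rank 5 of 407 and feature 1418 at rank 7 of 301. Il1r1 was at rank 48 of 435. A2m was at rank 12 from the lowest of 243, where the median was -0.18. Both C3 features lay above the medians of their neighbours (-0.13 for each), at rank 75 of 249 and rank 104 of 229.

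The gene means gave the order Lbp, Orm1, Stat3, Cp, Il1r1, C3 and A2m. These are ratios between the pools, not levels, and they are set side by side within each array. Lbp exceeded Orm1 on all 4 arrays, by 0.69 ± 0.18. Orm1 and Stat3 did not differ beyond their spread, with a difference of 0.13 ± 0.29. The sign of this difference followed the dye, at 0.47 and 0.26 with ANIT in Cy5 and -0.09 and -0.12 in the swapped orientation, so that its SD holds the dye contrast. Stat3 was above Cp on all 4 arrays, but by only 0.01 on array 2 (Cp minus Stat3, -0.36 ± 0.32). Cp and Il1r1 did not differ beyond their spread either (0.05 ± 0.37), and here too the sign followed the dye, at -0.27 on both arrays with ANIT in Cy5 and 0.44 and 0.30 in the swapped orientation. Il1r1 exceeded C3 on all 4 arrays (C3 minus Il1r1, -0.57 ± 0.39), and C3 exceeded A2m on all 4 (0.60 ± 0.36).

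Set against the signalling genes, the secreted proteins lay on both sides. Lbp exceeded Stat3 by 0.82 ± 0.12 and Il1r1 by 1.22 ± 0.09, each on all 4 arrays. A2m was below Stat3 by more than 1 log2 unit on each array (mean difference -1.57 ± 0.58). C3 was below Stat3 on all 4 arrays (-0.97 ± 0.33). Stat3 exceeded Il1r1 on all 4 arrays, by 0.41 ± 0.07. By gene mean 2 of the 5 secreted proteins and 0 of the 2 signalling genes were higher by the rule, against 0.626% of all 958 genes higher and 3.55% lower. Neither signalling gene was lower. With centred arrays the Stat3 gene mean was 1.10 and passed, when 0.939% of genes were higher.

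Of 52 listed symbols of positive acute phase proteins, 13 had a feature. Apart from Lbp and Orm1 none of the 13 was higher by the rule, and none was lower. Of the 13 gene means, 7 were above 0 on all 4 arrays, against 9.08% of all genes, and 1 was below 0 on all 4, against 20.3%. The list's median was 0.30, against -0.24 over all genes. Without the 5 members it was 0.14 over 8 genes.

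Among these 8 genes, Fgg, the γ chain of fibrinogen, had a mean of 0.56 ± 0.12, with 0.79 ± 0.17 on one feature and 0.34 ± 0.23 on the other. Fn1, the gene of fibronectin, had a mean of 0.38 ± 0.14. Itih3, a heavy chain of the inter-α-trypsin inhibitor family, had 0.36 ± 0.15, and Serpina3n, a serine protease inhibitor, had 0.30 ± 0.16. These 4 genes were above 0 on every array by their gene means, and none reached 2-fold. Serping1, the inhibitor of the first complement component, stood at -0.01 ± 0.19. Crp, the gene of C-reactive protein, stood at -0.23 ± 0.46, with features of opposite dye contrast (-1.19 and 0.43). Serpina1, the gene of α1-antitrypsin, stood at -0.28 ± 0.96, and Pla2g2a, a secreted phospholipase, at -0.67 ± 0.82. The mean of Serpina1 was -1.11 on the arrays that carried ANIT in Cy5 but 0.55 on the dye-swapped arrays, so its sign depended on the dye.

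**Figure D4:**
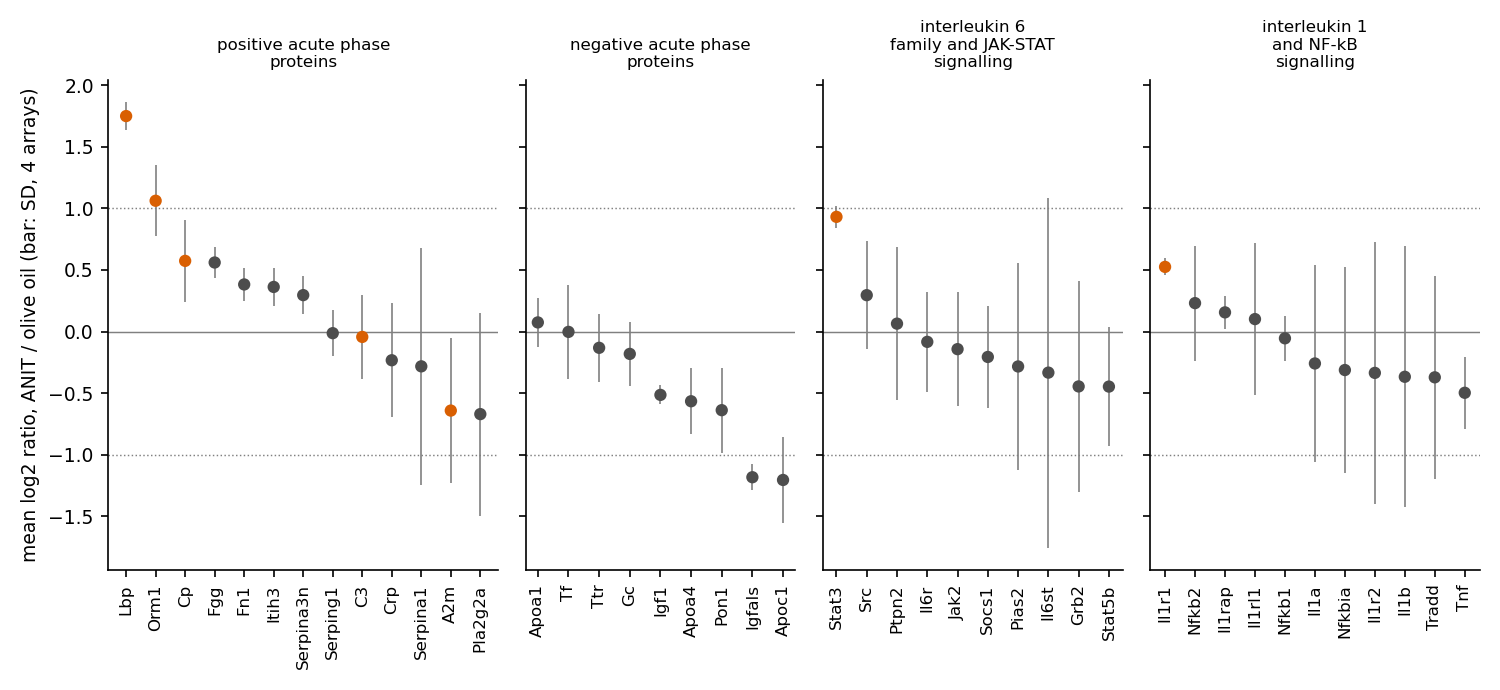
Mean log2 ratio of the ANIT over the olive oil pool for each measured gene of 4 lists (points, gene means with SD over the 4 arrays as bars, members in orange), with dotted lines at 2-fold. Lbp and Orm1 lie above 1, Igfals and Apoc1 lie below -1, and Stat3 and Il1r1 are the highest genes of their lists.

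Negative acute phase proteins are plasma proteins whose production drops during the response. Of 9 measured, 2 were lower by the rule, Apoc1, an apolipoprotein (-1.20 ± 0.35), and Igfals, the stabilising subunit of circulating insulin-like growth factor complexes (-1.18 ± 0.11). None was higher. Over all genes 3.55% were lower by the rule. The list's median was -0.51, against -0.24 over all genes. By gene mean 5 of the 9 were below 0 on all 4 arrays, against 20.3% of all genes. Pon1, an esterase carried by high-density lipoprotein, stood at -0.64 ± 0.34, Apoa4 at -0.57 ± 0.27 and Igf1 at -0.51 ± 0.08. The Pon1 features had means of -0.97 and -0.30, with dye contrasts of 0.25 and -0.84. Those of Apoa4 had -0.81 and -0.32, with dye contrasts of 0.16 and -0.60. The second feature of each had a dye contrast larger in size than its mean, so the single sign of Pon1 and Apoa4 holds for the gene mean only. The carrier proteins transthyretin (Ttr, -0.13 ± 0.27) and transferrin (Tf, below 0.01 in size, SD 0.38) are named for their role and had means near 0.

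Of 10 measured genes of the interleukin 6 family and the JAK-STAT pathway, none passed the rule by gene mean, and Stat3 was the highest. The 9 others had means between -0.45 and 0.30 and a median of -0.21. Stat5b, another STAT factor, and the adaptor Grb2 had means of -0.45 each (SDs of 0.49 and 0.86). Named for their place in the pathway, the interleukin 6 receptor Il6r had -0.08 ± 0.40 and its signalling subunit Il6st -0.33 ± 1.42. The kinase Jak2 had -0.14 ± 0.46, and Socs1, an inhibitor of the pathway with 8 features, had -0.21 ± 0.41. Il6st went from -1.56 with ANIT in Cy5 to 0.89 with ANIT in Cy3, so no direction can be given for it. Stat3 was the only gene of this list above 0 on all 4 arrays.

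Of 11 measured genes of interleukin 1 and NF-κB signalling, none passed the rule, and Il1r1 was the highest. The 10 others had a median of -0.29. Tnf, the gene of tumour necrosis factor, had -0.50 ± 0.29 and was below 0 on all 4 arrays. The adaptor Tradd had -0.37 ± 0.83. Named for their place in the pathway, the decoy receptor Il1r2 had -0.34 ± 1.06, Il1b -0.37 ± 1.06 and the inhibitor Nfkbia -0.31 ± 0.84. Il1rap, the co-receptor of Il1r1 and named for the same reason, had 0.16 ± 0.13. Its features were unlike, with means of -0.08 and 0.39. Of the 10 others, 5 had a dye contrast of -0.5 or below. Such values are common, since 42.7% of all features had a dye contrast below the -0.51 of A2m.

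Of 19 measured genes from a list of known STAT3 targets, 2 were higher by the rule, Lbp and Mt1, a metal-binding metallothionein (1.69 ± 0.40), against 0.626% of all genes, and none was lower. The list's median was 0.20, or 0.19 over the 16 that are no members, whose median was -0.04 with ANIT in Cy5 and 0.44 in the swapped orientation. Of the 19 means 12 were above 0 and 7 below, while 203 of all 958 genes were above 0. On all 4 arrays 8 of the 19 were above 0, against 9.08% of all genes. Without the members 6 of 16 were, and 1, Mt1, was higher by the rule. Of the 19 gene means, those of A2m and Igfbp1 (-0.25 ± 0.11) were the 2 below 0 on all 4 arrays, against 20.3% of all genes. The Igfbp1 features had opposite dye contrasts (-0.39 and 0.24), each larger in size than the feature's mean (-0.27 and -0.22). The single sign of Igfbp1 therefore holds for its gene mean only. The immediate early gene Myc stood at 0.52 ± 0.21 and the kinase gene Pim3 at 0.55 ± 0.23, both above 0 on all 4 arrays and named after their values were seen. Of 9 measured transcription factors of the acute phase liver, none passed. The bile acid receptor Nr1h4 had -0.85 ± 0.46, its target Nr0b2 0.62 ± 0.17, and Cebpd, a C/EBP factor named for its role, 0.20 ± 0.21.

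The genes whose ratios over the 4 arrays lay nearest to each member, by Euclidean distance among singly named features of other genes, came mostly from outside the acute phase lists. The pattern of Lbp was nearest to Mt1 (distance 0.54) and to Cyp1a2, a cytochrome P450 (0.54). Orm1 was nearest to feature 723 of Stat3 (0.39) and to Cavin3 (0.48). Stat3 was nearest to Por, the P450 reductase (0.20), and Mmp14, a membrane metalloproteinase (0.21). Il1r1 was nearest to the oxysterol receptor Nr1h2 (0.11) and the phosphatase subunit Ppp1cb (0.14). Cp was nearest to Hnrnpa1 and Dusp5, A2m to Pfkfb1 and Ptprs, and C3 to Araf and Apob. With 4 arrays of 2 pools this likeness describes the hybridisations only.

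Markers of other liver cell types were read beside these results, since Stat3 and Il1r1 are not limited to hepatocytes. None of the listed markers that were measured passed the rule by gene mean, by which 0.626% of all genes were higher and 3.55% lower. The median over all genes was -0.24, with -0.62 with ANIT in Cy5 and 0.29 in the swapped orientation. The 4 cholangiocyte markers had a median of -0.34, but -1.32 with ANIT in Cy5 and 0.50 in the swapped orientation. Of these, 3 (Spp1, Ggt1 and Cd24) had a dye contrast of -0.5 or below, while 42.7% of all features lay below the -0.51 of A2m. The neutrophil marker S100a9 had -0.13 ± 0.89 and the lymphocyte marker Il2rb -0.84 ± 0.12. The 3 endothelial markers had a median of -0.33, but -1.08 with ANIT in Cy5 and 0.41 in the swapped orientation. The 3 stellate cell and fibroblast markers had -0.21, but -0.96 with ANIT in Cy5 and 0.18 in the swapped orientation. Of 12 listed macrophage markers, 0 matched a singly named feature. The 8 hepatocyte markers had a median of -0.21, with Fah lowest at -0.73 ± 0.12. Cyp2e1, with 7 features, had a gene mean of -0.51 ± 0.44 that hid unlike features. Features 1234 and 1639 of Cyp2e1 had means of -1.24 and -1.05, beyond 2-fold lower, and the others lay between -0.46 and -0.10. The controls Actb and Hprt1 had -0.17 ± 0.21 and -0.15 ± 0.39. The part of cell composition in the ratios of the members was not tested.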

How the data were processed

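Per the labels, liver RNA of 3 rats per condition was mixed, and poly(A) RNA was labelled with Cy3 or Cy5 and hybridised to spotted cDNA arrays. The authors deposited 1 log ratio per feature and array, which was taken to be log2. The log base, the direction, the scanner and any normalization or background correction are not given in the sources used. Values were used as deposited, without turning any sign. The number of arrays limits the precision.

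Symbols came from the platform annotation, and all 7 member genes had the same symbol by gene ID in RefSeq (GRCr8). Each feature was averaged over the arrays, with the SD over 4 hybridisations. Calls needed at least 2-fold and the same sign on 4 arrays. The SD within an orientation pools arrays 1 and 3 with arrays 2 and 4. No p-value is given, because each condition is 1 pool. For lists, features of a gene were averaged first. Named genes were all members, all measured positive acute phase proteins, and of other lists those called plus up to 3 others with the largest absolute mean. Genes named otherwise are marked. Members and lists were chosen with earlier results of these data known. The alternatives changed the limit, the log base, the sign, the arrays used (1 dye orientation, or 1 array omitted), the centring, and the averaging over features. The size rule was tested on simulated data, in which the dye contrast cancelled by construction. That test therefore could not show how the rule behaves where a dye effect does not cancel. Python 3.11.15 was used with pandas 2.3.3, numpy 2.4.6 and matplotlib 3.10.9.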

Additional observations from a re-analysis of the deposited data

Results flagged for a closer look

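On array 1 Lbp had a ratio of 1.92, far from the other 3 arrays relative to their narrow range of 1.67 to 1.71. Its SD within an orientation was 0.10, against a median of 0.11 over all features, so its repeats were no further apart than usual. On array 3 transthyretin (Ttr), a negative acute phase protein, had a ratio of -0.54, while the other 3 arrays lay close to 0. Of 84 sets of 4 arrays looked at in this way, 2 held such a value. Chance alone gives about 1 in 20 only where the 4 values come from the same distribution. The dye orientations lay apart for most features, so that rate does not apply to these sets.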

How the results depend on the processing

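Of the members, 3 features were higher and 0 lower by the rule. The number higher was 5 with centred arrays, with natural logarithms and at 1.5-fold, and 1 at 3-fold. It ran from 1 to 3 with each array left out, and was 1 (Lbp) without array 1. The number lower was 1 (A2m) with ANIT in Cy5 alone and at 1.5-fold. With ANIT in Cy3 alone 2 features were higher, Lbp and feature 1862 of Cp (1.39), while Orm1 (0.85) and feature 723 of Stat3 (0.93) missed the limit. With the sign of every array turned, 0 were higher and 3 lower, with Lbp at -1.75, Orm1 at -1.06 and feature 723 of Stat3 at -1.004. Lbp was higher under each alternative but this one. Over all features, natural logarithms gave 33 higher and 113 lower, 1.5-fold gave 48 and 134, 3-fold gave 5 and 23, gene means gave 6 and 34, and the turned sign gave 59 and 15. With ANIT in Cy5 alone 13 of the 1936 features were higher and 667 lower, so a lower call such as that of A2m was common there. With ANIT in Cy3 alone 19 were higher and 55 lower. With each array left out, 13 to 15 were higher and 58 to 61 lower. Centring put 1 more gene, Stat3, past the rule in the JAK-STAT list, in the transcription factor list and in the list of known STAT3 targets. Without intensities, the signal behind a ratio near the limit is unknown.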

Other observations

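Complement was covered thinly. Of 37 listed genes 4 were measured, and none passed the 2-fold rule. Vtn, the gene of vitronectin, an inhibitor of the terminal complex, stood at -0.41 ± 0.07 and was below 0 on all 4 arrays, by -0.48 ± 0.14 and -0.35 ± 0.03 on its 2 features. Clu, the gene of clusterin, stood at 0.12 ± 0.30. Lbp was outranked by a single feature of the array, which carries no gene symbol and had a mean of 2.07 ± 0.15.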
